A study of Mus musculus with 12 samples.

Results

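The insulin-like growth factor (IGF) family was followed in nuclear RNA of adult mouse heart muscle cells with and without YAP5SA, a YAP protein that Hippo kinases cannot restrain because its serine targets are mutated. YAP is a co-activator of transcription. The family was taken by gene symbol: the ligand genes Igf1 and Igf2, the receptor genes Igf1r and Igf2r, and the binding protein genes Igfbp2 to Igfbp7, which are 10 of the 46983 symbols of the count table. Igfbp2 was picked for its large rise, so its difference between the groups is given as a description without a test. The other 9 members were taken for their family.

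Both groups were adult mice given tamoxifen and carrying Myh6-MCM, which makes a tamoxifen-inducible Cre recombinase from the cardiac Myh6 promoter. Control mice had the strain Myh6-MCM alone, and YAP5SA mice were Yap5SA+/tg; Myh6-MCM. Nuclei were selected on beads through PCM1, a centriolar satellite protein, and there were 2 libraries per group (replicates 1 and 2). No label says that replicates were separate animals, and a p-value here weighs a difference against library-to-library spread that could be technical.

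IGF1 and IGF2 are secreted peptides that act through IGF1R, a receptor tyrosine kinase that drives growth and survival, in heart muscle as in other tissues. IGF2R, which also carries mannose 6-phosphate tagged enzymes, takes IGF2 up for breakdown in lysosomes. The IGF binding proteins hold the peptides outside the cell and can limit or prolong their action, and proteases that cut the binding proteins set the peptides free.

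Igfbp2 and Igfbp5 lie tail to tail on chromosome 1 of mm10 (GRCm38). Igfbp2 is on the plus strand at 72824503 to 72852474 and Igfbp5 on the minus strand at 72857932 to 72874884, with 5457 bases between their ends in GENCODE M21. They are the members with the highest fold changes, and for that reason the bases upstream of their outermost starts are shown (RefSeq promoter table, GRCm38.p6), Igfbp2 from chr1:72824230-72824479 on the plus strand and Igfbp5 from chr1:72874885-72875115 on the minus strand. Capitals mark GGAATG, the core letters bound by the TEAD partners of YAP, read on either strand, or TGANTCA, the AP-1 letters, which read the same on both strands.
Igfbp2: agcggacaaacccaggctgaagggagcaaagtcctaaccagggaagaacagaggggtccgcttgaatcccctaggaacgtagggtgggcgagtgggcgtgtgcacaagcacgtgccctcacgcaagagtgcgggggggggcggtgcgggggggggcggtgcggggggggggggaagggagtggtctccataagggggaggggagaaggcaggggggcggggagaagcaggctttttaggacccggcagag
Igfbp5: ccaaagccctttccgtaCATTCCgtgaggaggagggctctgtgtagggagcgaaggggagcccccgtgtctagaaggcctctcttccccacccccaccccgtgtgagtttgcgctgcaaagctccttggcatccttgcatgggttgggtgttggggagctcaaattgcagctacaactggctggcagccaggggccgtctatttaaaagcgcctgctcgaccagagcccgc
The Igfbp5 stretch held 1 match, to the reverse complement CATTCC, and the Igfbp2 stretch held 0. A second annotated start of Igfbp2 had TGAGTCA 39 bases upstream.

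All 10 members matched the promoter table, with 14 windows of 300 bases (250 before and 50 after each start). GGAATG was found in windows of 2 members, Igfbp5 and Igf2, and in 16.6% of the 27025 genes of the table. For Igf2, its windows make up 3 of the 4 member windows with a match. TGANTCA was found for Igf1 and Igfbp2, and in 8.97% of all genes. These matches are letters in a window and not measured binding sites.

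Igfbp2, which encodes a binding protein that also carries an integrin-binding sequence, was close to absent in control nuclei and present in YAP5SA nuclei. It had 2 counts in each control library, against 149 and 248 in YAP5SA replicates 1 and 2. As CPM, counts scaled to library totals adjusted by TMM, these are 0.181 and 0.264 in control and 10.04 and 18.8 in YAP5SA. The groups were far apart, and YAP5SA replicate 2 was the higher of its pair. Each control value lies under the 3 counts that a count of 0 allows, 0.272 CPM in control replicate 1 and 0.397 CPM in control replicate 2. The ratio of summed counts, scaled by the same totals, was 65.9, with an exact 95% binomial counting interval of 25.6 to 243 that covers counting error only. The interval leaves out the spread between libraries and the choice of Igfbp2 for its large rise, so it is no test of the difference.

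Igfbp5, whose protein binds extracellular matrix as well as IGFs, also rose. It measured 91.8 and 152 CPM in the control pair and 439 and 463 CPM in the YAP5SA pair, replicate 1 first. Both YAP5SA libraries lay above both control libraries, and the YAP5SA pair was the closer one. The log2 fold change, YAP5SA minus control, was 1.89 (SE 0.288), a 3.70-fold rise with an adjusted p of 0.0381 in the quasi-likelihood test of edgeR, Benjamini-Hochberg adjusted over 17715 tested genes. Of the 9 members other than Igfbp2, Igfbp5 alone passed the threshold of 0.05, against 4.12% of all tested genes in either direction, 3.12% upward and 0.999% downward. At an unadjusted p under 0.05 there were 2 of the 9, Igfbp5 and Igf2, against 23.7% of all tested genes. The size of the difference did not rest on any single library (log2 fold change 1.58 to 2.33 when each was left out), but the call was lost without YAP5SA replicate 1 (adjusted p = 0.131) and without YAP5SA replicate 2 (adjusted p = 0.257), fits in which 0.388% and 0.143% of all genes passed. It was kept with DESeq2 and with limma-voom (adjusted p = 3.14e-07 and 0.0374).

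In bulk RNA, fewer cells of a type and less RNA per cell cannot be told apart, and markers of other cell types were detected beside those of heart muscle cells. All 9 cardiomyocyte markers were detected in every library, with summed levels of 31960 and 64341 CPM in control and 22878 and 24004 CPM in YAP5SA, and 0 of the 9 passed. Ttn carried most of these sums, and the other 8 summed to 12059 and 16192 against 7378 and 7326 CPM. At an unadjusted p under 0.05 with edgeR, 4 of the 9 cardiomyocyte, 7 of the 9 endothelial and 3 of the 8 smooth muscle and pericyte markers were lower, against 10.9% of all tested genes, and 12 of the 13 macrophage and monocyte markers were higher, against 12.7%. At that unadjusted p, 3 of the 10 fibroblast markers were higher and 0 lower. Of the 6 epicardial markers 2 were higher and 3 lower, and of the 4 endocardial markers 2 were higher and 1 lower. Markers said here to have risen or fallen passed the adjusted threshold, as 3.12% of all tested genes did upward and 0.999% downward. The 10 fibroblast markers summed to 8682 and 7084 CPM in control and 6636 and 8287 CPM in YAP5SA (Lum rose). The 9 endothelial markers summed to 1936 and 1226 against 951 and 878 CPM (Vwf and Robo4 fell), and the 13 macrophage and monocyte markers to 867 and 633 against 1556 and 1862 CPM (6 rose). The 8 smooth muscle and pericyte markers summed to 1716 and 1535 against 1593 and 1738 CPM. Acta2 rose, and without it the other 7 summed to 1558 and 1437 against 881 and 821 CPM. The 4 endocardial markers, which share Vwf with the endothelial list, summed to 252 and 219 against 168 and 186 CPM, but without Vwf the other 3 summed to 78.2 and 76.4 against 113 and 113 CPM. The 6 epicardial markers summed to 63.0 and 46.5 against 72.1 and 80.6 CPM. Schwann cell and lymphocyte lists, of 5 genes each, summed to under 14 CPM in every library, and Ms4a1 in control replicate 1 was the only listed marker at 0 in any library. Igfbp2 and Igfbp5 were higher in both YAP5SA libraries, as were 28.1% of all tested genes and listed markers of several cell types. The part of other cell types in the rise of Igfbp2 and Igfbp5 was not tested.

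**Figure D1:**
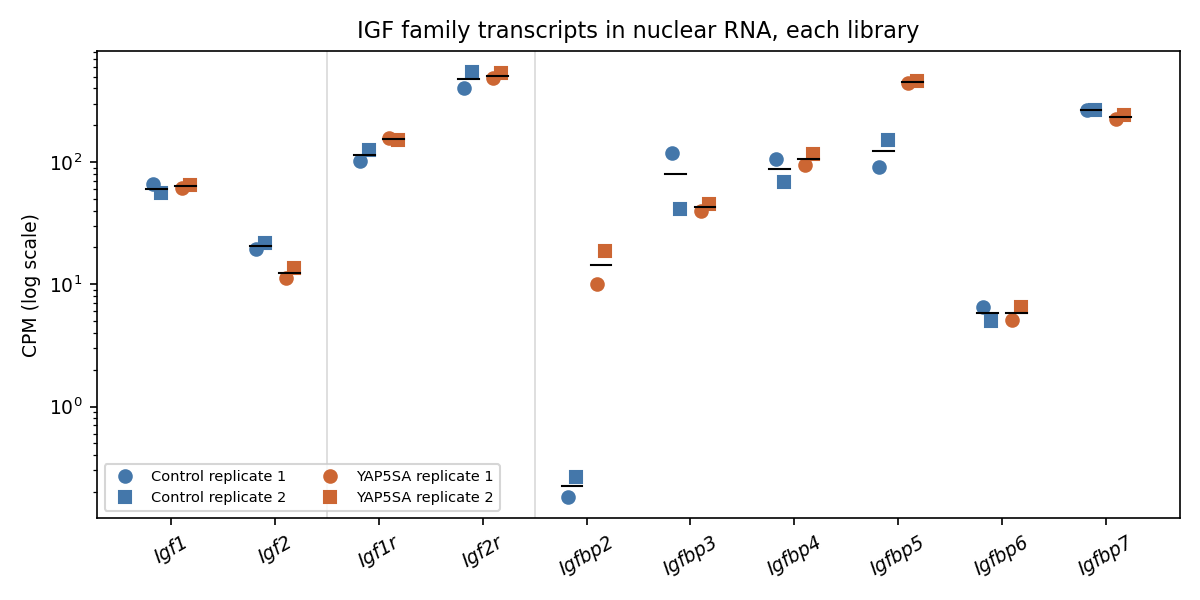
Level of each IGF family member in each library, in CPM on a log axis. Circles are replicate 1 and squares replicate 2, blue for control and orange for YAP5SA, and black lines are group means. Igfbp2 sits below 0.3 CPM in both control libraries and at 10.04 and 18.8 CPM in YAP5SA, Igfbp5 is at 439 and 463 CPM in YAP5SA, and the control points of Igfbp3 lie far apart.

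Among the ligands, Igf2 was lower in both YAP5SA libraries and Igf1 was at similar levels in all 4. Igf2, on chromosome 7 (142650766 to 142666816, minus strand), encodes the growth factor that is most active before birth. It measured 19.5 and 21.7 CPM in control, against 11.2 and 13.6 CPM in YAP5SA. The groups did not overlap, and the log2 fold change was -0.73 (SE 0.2098), but it missed the threshold (edgeR adjusted p = 0.119). Without control replicate 1 or without control replicate 2 it passed, at -0.80 (adjusted p = 0.000511) and -0.62 (adjusted p = 0.00715), but in these fits 36.2% and 38.3% of all genes passed. Without YAP5SA replicate 1 or 2 the adjusted p of Igf2 was 0.725 and 0.702. Igf1, which mediates much of the action of growth hormone, measured 65.7 and 55.4 CPM in control and 61.3 and 65.2 CPM in YAP5SA. The ranges of Igf1, which lies on chromosome 10 (87858265 to 87937042, plus strand), overlapped, with a log2 fold change of 0.06 (SE 0.171, edgeR adjusted p = 0.864). The level of Igf1 over that of Igf2, both per kb of exon, was 1.95 and 1.48 in control and 3.17 and 2.77 in YAP5SA, so every YAP5SA library had the higher ratio.

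Neither receptor gene passed. Igf1r, on chromosome 7 (67952827 to 68233668, plus strand), encodes the signalling receptor. It measured 101 and 126 CPM in control and 158 and 151 CPM in YAP5SA, without overlap. Its log2 fold change of 0.45 (SE 0.182) missed the threshold (edgeR adjusted p = 0.215), and it passed in the fit without control replicate 2, at 0.65 (adjusted p = 8.53e-05), and in no other alternative run. Igf2r, on chromosome 17 (12682406 to 12769664, minus strand), measured 404 and 545 CPM in control and 487 and 534 CPM in YAP5SA, and both YAP5SA libraries lay between the control libraries. The log2 fold change was 0.10 (SE 0.235, edgeR adjusted p = 0.827). Per kb of exon, Igf2r stood at 7.21 and 7.82 times Igf1r in control and at 5.55 and 6.36 times in YAP5SA.

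The other binding protein genes differed less between the groups than Igfbp2 and Igfbp5 did, and for Igfbp3 and Igfbp4 the control libraries stood apart. Igfbp3, on chromosome 11 (7206086 to 7213923, minus strand), encodes the main IGF carrier of the blood. It measured 118 CPM in control replicate 1 and 41.6 in control replicate 2, against 39.6 and 45.6 CPM in YAP5SA. Control replicate 1 alone was high, and the other 3 libraries were within 6 CPM of each other. The log2 fold change was -0.91 (SE 0.477, edgeR adjusted p = 0.31), 0.04 without control replicate 1 (adjusted p = 0.868) and -1.44 without control replicate 2 (adjusted p = 2.1e-24), so that its direction turned on 1 library. With no filter on low counts Igfbp3 passed downward (adjusted p = 0.00549), as 11.2% of all genes passed in either direction. Control replicate 1 was 2.84 times control replicate 2 for Igfbp3. The same ratio of summed markers was 2.43 for the lymphocyte list, 1.58 for the endothelial, 1.54 for the Schwann cell, 1.37 for the macrophage and monocyte and 1.35 for the epicardial list. It was 1.23 for fibroblast, 1.15 for endocardial and 1.12 for smooth muscle and pericyte markers, and 0.497 for cardiomyocyte markers (0.745 without Ttn). The lymphocyte sum in control replicate 1 was mostly Cd79a, at 7.15 CPM against 1.06 CPM in control replicate 2. Of the 5 listed lymphocyte genes, 2 were higher in control replicate 1. The part of cell make-up in the spread of Igfbp3 was not tested.

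Igfbp4, also on chromosome 11 (99041244 to 99054392, plus strand), encodes a protein that mostly restrains IGF action. It measured 106 and 68.1 CPM in control and 93.8 and 116 CPM in YAP5SA, with overlap (log2 fold change 0.27, SE 0.26, edgeR adjusted p = 0.570). Without control replicate 1 it passed upward at 0.63 (adjusted p = 0.000103), and without control replicate 2 the log2 fold change was 0.03. Igfbp6, on chromosome 15 (102144362 to 102149511, plus strand), encodes a protein that prefers IGF2. It was at 6.52 and 5.02 CPM in control and 5.12 and 6.53 CPM in YAP5SA, and the group means of 5.77 and 5.83 CPM differed by less than the spread within either pair. Igfbp7, on chromosome 5 (77349240 to 77408041, minus strand), is a more distant relative with low affinity for IGFs. It measured 265.08 and 265.01 CPM in control and 226 and 243 CPM in YAP5SA. These groups did not overlap, and the log2 fold change of -0.18 (SE 0.171) did not pass (edgeR adjusted p = 0.577). Exons of Igfbp7 overlap those of Polr2b on the opposite strand, and the strand used in counting is not known here.

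In all, 2 of the 9 members other than Igfbp2 lay higher in both YAP5SA libraries (Igfbp5 and Igf1r) and 2 lower (Igf2 and Igfbp7). Such separation was common in these libraries, with 56.3% of all tested genes showing no overlap between the groups, 28.1% higher and 28.3% lower in YAP5SA. The median log2 fold change was 0.06 over the 9 members and -0.06 over all tested genes.

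**Figure D2:**
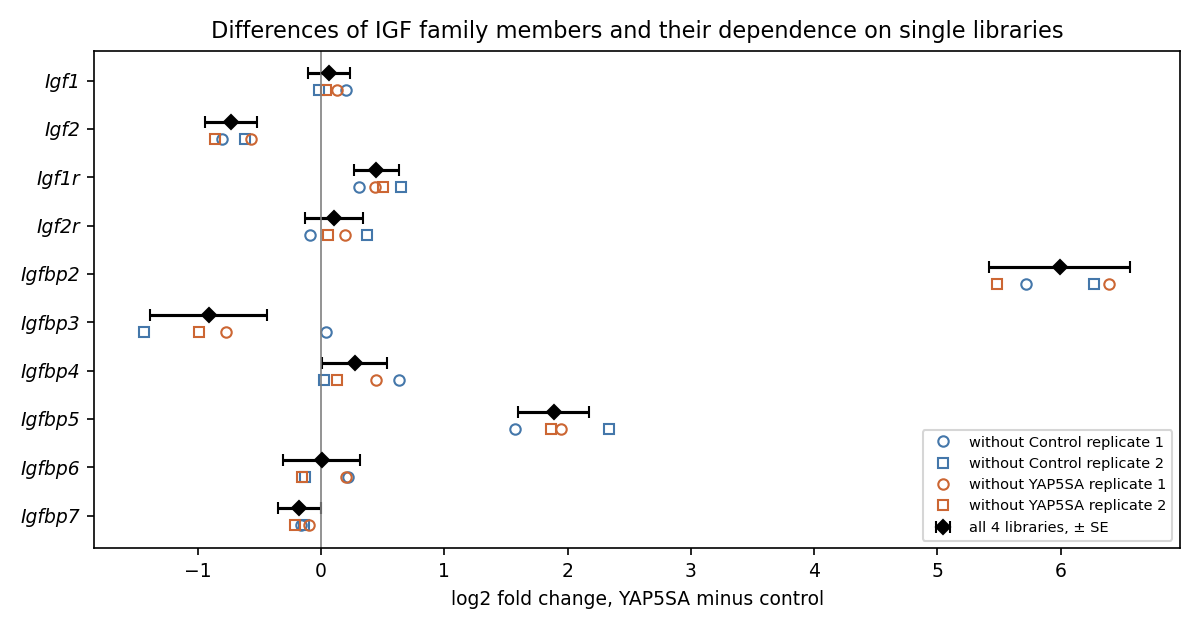
Log2 fold change of each member, YAP5SA minus control. Black diamonds with bars are the value over all 4 libraries ± SE from edgeR, and open symbols are the values with 1 library left out. Igfbp2 and Igfbp5 stay well above 0 in every fit, while Igfbp3 moves from -1.44 to 0.04 with the control library left out.

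To compare the members with each other, CPM were divided by the annotated exon length in kb. In the control libraries Igfbp7 stood highest at 219 ± 0.0402 CPM per kb (mean ± SD, n = 2), followed by Igf2r at 51.0 ± 10.7. Igfbp3 (25.6 ± 17.3), Igfbp5 (20.3 ± 7.1) and Igfbp4 (19.7 ± 6.02) came next and overlapped each other. Igf1r (6.76 ± 1.03), Igf1 (6.12 ± 0.74) and Igfbp6 (5.19 ± 0.953) formed a lower group in which neighbours overlapped. Igf2 followed at 3.59 ± 0.273, and Igfbp2 was last at 0.121 ± 0.0319 CPM per kb.

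In the YAP5SA libraries Igfbp7 was again first at 194 ± 10.1 CPM per kb (mean ± SD, n = 2), but Igfbp5 stood second at 75.1 ± 2.82, above Igf2r at 54.8 ± 3.55. Igfbp4 (23.8 ± 3.57), Igfbp3 (13.6 ± 1.34) and Igf1r (9.22 ± 0.298) followed. Igfbp2 moved to rank 7 at 7.82 ± 3.37 CPM per kb, where its libraries overlapped those of Igf1r, Igf1 (6.39 ± 0.274) and Igfbp6 (5.24 ± 0.896). Igfbp6 and Igf2 (2.16 ± 0.297) were last. Division by exon length assumes that reads came from exons, which the sources used here do not state for these nuclear libraries. With the whole gene span in place of exon length, 9 of the 10 ranks in control differed, with Igfbp3 first and Igfbp7 at rank 5.

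The summed level of the 6 binding protein genes was 302 and 278 CPM per kb in control, against 304 and 335 in YAP5SA. Control replicate 1 and YAP5SA replicate 1 were nearly equal on this scale. Without division by length the summed CPM was 588 and 532 in control against 814 and 894 in YAP5SA, a ratio of means of 1.52 without overlap. Igfbp5 made up 5.06% and 9.11% of the sum in control, against 24.1% and 23.0% in YAP5SA. Igfbp7 made up 72.5% and 78.9% in control and 61.5% and 60.02% in YAP5SA. Igfbp2 went from 0.0324% and 0.0515% to 1.79% and 3.04%, so that Igfbp5 stayed above its neighbour in every library, by a per-kb ratio of 156 and 177 in control and 13.5 and 7.57 in YAP5SA. Without division by length Igfbp5 was the larger part in YAP5SA, at 52.9% of the summed CPM against 22.1% in control (group means). On that scale Igfbp7 made up 27.5% in YAP5SA and 47.5% in control, so its first place in YAP5SA rests on division by exon length. The summed ligand level was 10.04 and 9.38 CPM per kb in control and 8.15 and 8.95 in YAP5SA, far below that of the binding proteins in every library.

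**Figure D3:**
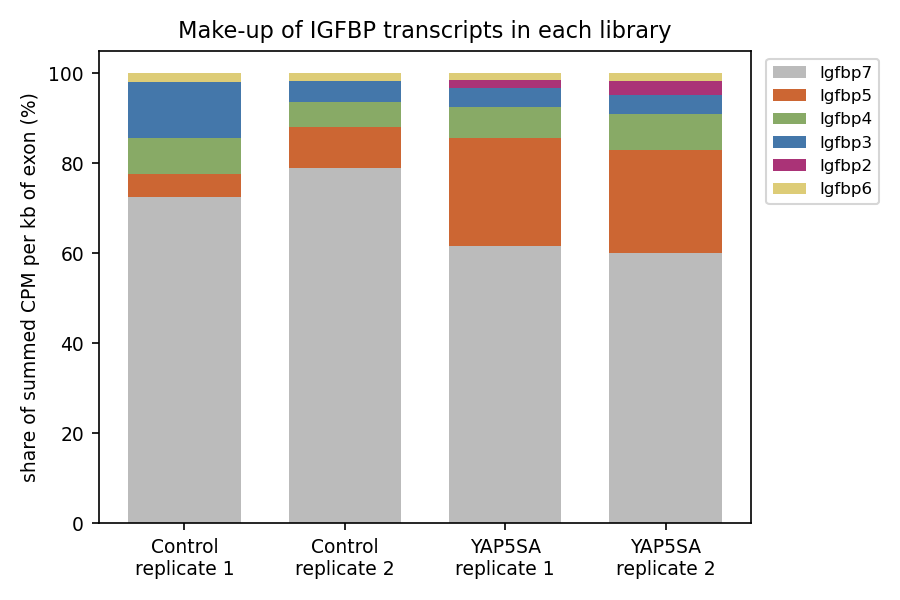
Share of each binding protein gene in their summed CPM per kb of exon, in percent, as 1 stacked bar per library. The Igfbp5 part is 5.06% and 9.11% in the control bars and 24.1% and 23.0% in the YAP5SA bars, and Igfbp7 is the largest part of every bar.

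The other 3 tested genes within 500 kb of the Igfbp2 and Igfbp5 pair missed the threshold. On the Igfbp2 side the nearest coding gene is Rpl37a, 110690 bases away, a ribosomal protein gene at 92.1 and 68.5 CPM in control and 84.8 and 87.7 CPM in YAP5SA (log2 fold change 0.10, edgeR adjusted p = 0.795). On the Igfbp5 side Tnp1, a spermatid gene 140190 bases away, had at most 0.132 CPM in any library. The remaining tested genes within 500 kb of Igfbp2 were Smarcal1, which encodes a replication fork remodeler (log2 fold change 0.23, edgeR adjusted p = 0.547), and Xrcc5, which encodes the Ku80 subunit of DNA end joining (log2 fold change -0.68, edgeR unadjusted p = 0.0306, adjusted p = 0.165). March4 and Ankar in the same interval were at or below 0.272 CPM in all 4 libraries.

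The genes whose pattern over the 4 libraries was nearest to that of Igfbp2 were Myh8, Il23r, Myh2, Plcxd2 and Myh1. Likeness was the Euclidean distance between log2(CPM + 0.5) values after each gene's own mean was taken off, among tested genes of at least 5 CPM on average, and the distances ran from 0.4 for Myh8 to 0.62 for Myh1. With 4 libraries this ranks genes mainly by the size of the group difference. Myh8, a perinatal skeletal myosin gene, had 0.181 and 0.529 CPM in control and 13.9 and 20.0485 CPM in YAP5SA, and Plcxd2 had 14.04 and 13.5 against 274 and 309 CPM. Myosin heavy chain genes are near-identical in parts and can share reads.

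Beyond the family, 58 other genes of the pathway were examined, of which 51 were tested. In all, 3 rose and 0 fell, which is 5.88% against 4.12% of all tested genes, and the median log2 fold change was 0.05. The calls were Pappa, Htra1 and Plagl1, and 10 higher genes and 1 lower gene had an unadjusted p under 0.05, together 21.6% against 23.7% of all tested genes. All 3 calls were lost without YAP5SA replicate 1 and without YAP5SA replicate 2, where few genes of any kind passed.

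Proteases that cut IGF binding proteins held 2 of these calls. Pappa encodes a metalloprotease that cuts IGFBP4 and IGFBP5, and it rose from 11.05 and 10.6 CPM in control to 27.0 and 27.3 CPM in YAP5SA (log2 fold change 1.33, SE 0.183, edgeR adjusted p = 0.0321). Htra1 encodes a secreted serine protease that cuts IGFBP5 among other substrates, and it rose from 47.8 and 85.1 to 229 and 257 CPM (log2 fold change 1.87, SE 0.307, edgeR adjusted p = 0.0426). In both genes the groups were well apart. Htra1 missed the threshold with the stricter filter on low counts. Its relative Htra3 measured 25.3 and 13.5 CPM in control and 59.2 and 59.6 CPM in YAP5SA (edgeR adjusted p = 0.0559). With all 4 libraries, Htra3 passed with DESeq2, limma-voom, no filter and the replicate block. In these fits 5.22%, 4.02%, 11.2% and 2.44% of the genes in each passed. It missed the threshold with the other scalings and the stricter filter. Stc2 encodes a stanniocalcin that inhibits the product of Pappa. It measured 6.88 and 8.19 against 15.3 and 14.2 CPM (edgeR adjusted p = 0.0806) and, with all 4 libraries, passed only with no filter. Htra3 and Stc2 were named after their values were seen, as are the remaining genes of the group. Ctsd measured 943 and 493 CPM in control against 452 and 526 CPM in YAP5SA, with overlap (log2 fold change -0.56, edgeR adjusted p = 0.390). Stc1 measured 10.7 and 3.57 against 7.01 and 7.52 CPM, with overlap (log2 fold change 0.004). Pappa2 was low, at 1.27 and 1.06 against 2.09 and 1.82 CPM (edgeR adjusted p = 0.327). Of the 7 tested genes of this group 2 passed (28.6%, against 4.12% of all tested genes). The median log2 fold change was 0.97, against -0.06 over all tested genes. The list was chosen with earlier results of these data known.

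Of 7 tested genes of IGF2 mRNA binding proteins and imprinted genes, Plagl1 rose. It encodes an imprinted zinc finger transcription factor and measured 35.6 and 20.9 CPM in control and 100.2 and 112 CPM in YAP5SA (log2 fold change 1.90, SE 0.286, edgeR adjusted p = 0.0368). Igf2bp1, an mRNA binding protein gene active mainly in the embryo and named after its values were seen, had 20 and 0 counts in control and 261 and 265 in YAP5SA. The control libraries differed, and the edgeR adjusted p of 0.0615 missed the threshold. Among the alternatives with all 4 libraries, Igf2bp1 passed only with scaling by library totals alone and with no filter. In these fits 4.91% and 11.2% of all genes passed. The ratio of summed counts was 17.5 (counting interval 11.2 to 28.8). That interval covers counting error only and leaves out the spread between the control libraries. The edgeR log2 fold change was 4.21 (SE 0.861). H19, the imprinted RNA gene beside Igf2, measured 4.53 and 10.3 CPM in control and 4.65 and 5.77 CPM in YAP5SA, with overlap.

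Upstream and downstream of the receptor, 0 of 37 tested genes in the remaining 4 groups passed with edgeR. At an unadjusted p under 0.05 there were 3 higher genes and 1 lower gene, or 10.8% against 23.7% of all tested genes. DESeq2 called 2 of the 37, Ghr and Pik3cb, and 5.22% of the 30546 genes it was run on. Those genes include low ones outside the 17715 tested with edgeR, so the 2 shares are not on the same set. Ghr, the growth hormone receptor gene, measured 111 and 264 CPM in control and 416 and 420 CPM in YAP5SA (edgeR adjusted p = 0.176). Insr, the insulin receptor gene, measured 239 and 414 against 218 and 210 CPM (edgeR adjusted p = 0.279). Pik3r1, which encodes a regulatory subunit of PI3 kinase, measured 228 and 156 against 243 and 242 CPM (edgeR adjusted p = 0.431), and Lrp1, an endocytic receptor gene, 1288 and 649 against 1004 and 1162 CPM (edgeR adjusted p = 0.834). In Ghr, Insr and Lrp1 the control libraries differed by more than 1.5 times, and the YAP5SA libraries lay close together. Igfbp1, Ins1 and Ins2 had 0 counts in every library.

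**Figure D4:**
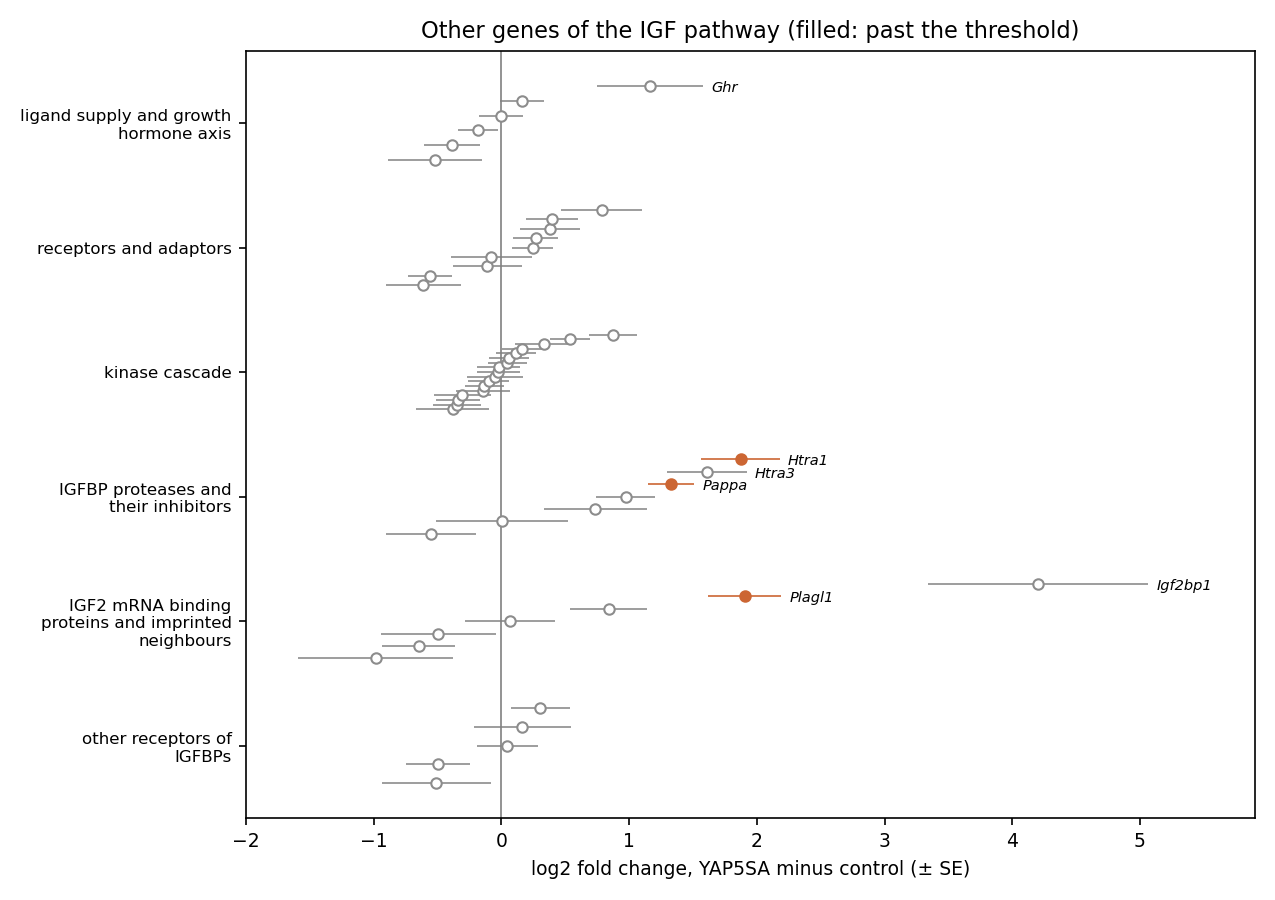
Log2 fold change, YAP5SA minus control, of the tested genes in 6 pathway groups, with bars of ± SE from edgeR. Filled orange points passed the threshold (Htra1, Pappa and Plagl1), and most kinase cascade genes lie within 0.5 of 0.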

How the data were processed

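The deposited file gave unnormalized counts, 1 row per gene symbol, for 4 nuclear RNA-seq libraries (2 control, 2 YAP5SA), made by the authors from reads mapped to mm10 with STAR, per the labels' protocols (DESeq2 is named there too). Counting tool, strand setting and annotation were not given in the sources used here. Reads of overlapping genes therefore cannot be told apart: exons of Igfbp7 overlap Polr2b, exons of Igf2 overlap Igf2os and Gm49394, and the spans of Igf2r and Igf1 hold parts of Airn and Igf1os. Total counts were 10927396 and 7850661 in control and 15012122 and 12806949 in YAP5SA, replicate 1 first, so both control libraries were shallower than both YAP5SA libraries.

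Genes were kept by filterByExpr (minimum count 10) and scaled by TMM, and 17715 genes, all 10 members among them, were tested in edgeR 4.0.16 under R 4.3.3 (quasi-likelihood) without a replicate block, with Benjamini-Hochberg adjustment and a threshold of 0.05. SE is the size of the log2 fold change over the square root of F. Alternatives were DESeq2 1.42.0, limma-voom (limma 3.58.1), other scalings and filters, a replicate block, each library left out, and other lengths. The fit was tested on simulated data.

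Members and gene lists were chosen with earlier results of these data known. Named pathway genes are those past the threshold (at most 3 per direction and list) or, where none passed, the gene of highest mean CPM. The nearest coding genes and the 5 genes nearest in pattern to Igfbp2 complete the rule. Other genes, H19, Pik3cb, Igfbp1 and Ins1 among them, were named after their values were seen. Positions and exon lengths are from GENCODE M21, promoter sequences from RefSeq (GRCm38.p6). ATAC-seq and 4C-seq samples were not analysed here. Some neighbouring genes are not reported here.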

Additional observations from a re-analysis of the deposited data

How the results depend on the processing

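The number of genes higher and lower in YAP5SA was 553 and 177, and moved to 1727 and 1689 with no filter on low counts, 354 and 99 with the stricter filter (1 CPM in all 4 libraries), and 1069 and 527 with DESeq2. With the replicate block it was 321 and 112. The labels give both groups the same replicate numbers but no shared origin, and the same-numbered libraries deviated with a correlation of -0.10 across genes, so this pairing was not used elsewhere. With the block Igfbp5 kept its call, and among pathway genes Pappa lost it and Htra3 gained it. With single libraries left out, the counts ran from 27 to 3749 higher and from 0 to 3554 lower, those of members past the threshold (Igfbp2 not counted) from 0 to 4 and those of pathway genes from 0 to 25, lowest without a YAP5SA library and highest without a control library. In such a fit the lone library is assumed to vary like the other pair. With no filter 2 members and 11 pathway genes passed, and with DESeq2 6 pathway genes, and the cause was not tested. Signs turned for Igf1 (-0.0198 to 0.20 over left-out libraries), Igf2r (-0.0870 to 0.37), Igfbp3 (-1.44 to 0.0396) and Igfbp6 (-0.15 to 0.22, also -0.0110 with the stricter filter and -0.0199 with limma-voom). The order of levels per kb in control changed for 2 members with the longest transcript and 9 with the gene span, and the Igfbp5 share in YAP5SA was 52.9% without length and 23.5% with it. Igfbp2 was not tested under the stricter filter, which its control level fails, and its log2 fold change ran from 5.48 to 6.39 over 10 alternatives. At 2 counts per control library, depth limits its fold.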

Other observations

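Around all 10 members, 85 other coding genes within 500 kb were tested, and 5 passed in edgeR (5.88%, against 4.12% of all tested genes), named here after their values were seen. Adcy1, an adenylyl cyclase gene 27580 bases from Igfbp3, rose from 2.81 and 4.36 CPM in control to 46.5 and 53.8 CPM in YAP5SA (log2 fold change 3.83, edgeR adjusted p = 0.0112), while Igfbp3 itself did not pass. Tnnt3 near Igf2 fell, and Tssc4 near Igf2, Dram1 near Igf1 and Amhr2 near Igfbp6 rose. The coding gene next to Igfbp3 on its other side, Tns3, which encodes the focal adhesion protein tensin, lies 1217729 bases away and rose from 146 and 134 to 346 and 349 CPM (edgeR adjusted p = 0.0316).

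Igfbp4 lies between Top2a, the topoisomerase gene of dividing cells, 17055 bases away, and Tns4. Top2a measured 40.9 and 63.6 CPM in control and 120 and 155 CPM in YAP5SA, and Tns4 0.634 and 0.661 against 2.56 and 2.51 CPM (edgeR adjusted p = 0.0558 and 0.0668). Other nearest coding genes that did not pass or were too low to test were Pmch beside Igf1, Mrpl23 and Ins2 beside Igf2, Ttc23 and Pgpep1l beside Igf1r, Mas1 beside Igf2r, Spryd3 and Soat2 beside Igfbp6, and Noa1 and Adgrl3 beside Igfbp7.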
